A study of Mus musculus with 8 samples.

Results

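The genes described here are 10 regulators of oxidative metabolism: the coactivators Ppargc1a and Ppargc1b, the nuclear receptors Esrra, Esrrg, Ppara and Ppard, the transcription factors Nrf1 and Gabpa, the mitochondrial DNA-binding factor Tfam and the corepressor Nrip1. They were taken by name as one network, with no measured value in the rule, although earlier results of these data were known, and all 10 were found by mouse Ensembl identifier among the 23008 mouse genes of the deposited table. The RNA came from gastrocnemius, the large calf muscle, of adult wild-type C57BL/6J mice. Every mouse had received the construct named GNDM in the labels, a guide-directed epigenome editor packaged in AAV9 and given through the tail vein, so no group was left uninjected. Its promoter and the dose are not stated in the labels. The 4 m31 libraries carried guide m31, which targets Lama1, and the 4 control libraries a non-targeting guide. Tissue was collected 11 weeks later. Age at injection is 7 weeks in the sample labels and 7 to 12 weeks in the series text, and sex is not stated. The labels do not say that each library came from its own animal, so the spread between libraries may be partly technical.

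PGC-1 proteins do not bind DNA themselves. They dock on nuclear receptors such as the oestrogen-related receptors (ERR) and the peroxisome proliferator-activated receptors (PPAR) and raise transcription of genes for respiration and fatty acid oxidation. With NRF1 and GABPA (also called NRF-2) they raise Tfam, whose protein packages and transcribes mitochondrial DNA. Nrip1, known as RIP140, works on the same receptors in the opposite direction. In muscle this network is known for its response to exercise, cold and fasting and for its part in setting how oxidative a fibre is.

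Stretches before RefSeq starts of 4 of these genes are printed for the short motif matches they hold, and whether a regulator acts there was not tested. Ppargc1a, which had the widest spread of the 10 genes, holds a core of the cAMP response element (CRE). NRF1 cores lie before the RefSeq starts of Esrra, the most abundant per kilobase of exon, and of Ppara. The profile of Ppara, among these regulators, came nearest to that of Ppargc1a. Tfam, the steadiest, holds an ETS core. All 4 stretches are read 5′ to 3′ on the gene's own strand from RefSeq (GRCm38.p6), and capitals mark motif matches. The stretches of Ppargc1a, Esrra and Ppara lie outside annotated exons, at chr5:51567727-51567975 (minus strand), chr19:6921814-6922058 (minus strand) and chr15:85735714-85735775 (plus strand). The stretch of Ppara lies within the gene as GENCODE annotates it, which begins at 85734983. The 30 bases of Tfam, chr10:71238073-71238102 on the minus strand, lie within an annotated exon.
Ppargc1a: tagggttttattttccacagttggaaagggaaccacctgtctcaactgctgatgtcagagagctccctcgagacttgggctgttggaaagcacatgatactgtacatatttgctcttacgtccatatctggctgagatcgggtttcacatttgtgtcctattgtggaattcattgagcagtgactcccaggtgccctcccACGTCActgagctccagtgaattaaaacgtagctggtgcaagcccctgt
Esrra: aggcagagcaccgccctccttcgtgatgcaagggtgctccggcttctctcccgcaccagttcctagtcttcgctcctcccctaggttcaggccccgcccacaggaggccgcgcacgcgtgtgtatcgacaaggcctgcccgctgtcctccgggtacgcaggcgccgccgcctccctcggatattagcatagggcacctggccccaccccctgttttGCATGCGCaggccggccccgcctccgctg
Ppara: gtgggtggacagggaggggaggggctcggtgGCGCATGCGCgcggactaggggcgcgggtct
Tfam: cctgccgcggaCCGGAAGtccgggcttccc

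Matches were sought on both strands in the 250 bases before each RefSeq start, for 9 of the 10 genes. Ppargc1b was not searched. Esrrg had 4 such windows, Nrf1 and Nrip1 2 each, and the rest 1 each. Ppargc1a held 1 CRE core, TGACGT, read here as its reverse complement, at 50 to 45 bases before the start, and 6.47% of the 32851 such windows in the mouse table held this core. The NRF1 core GCATGCGC, present in 2.26% of windows, matched once in Esrra and on both strands, overlapping, in Ppara. The ETS core CCGGAAG bound by GABPA, present in 6.91%, matched once in Tfam and once in Gabpa itself. AAGGTCA, the half-site of the ERR receptors present in 4.08% of windows, had no match in these windows. A match describes letters and not binding.

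The m31 libraries held 34142447 to 37792459 reads in mouse genes, the control libraries 25157486 to 39210248. Values are normalised reads, that is, reads divided by a size factor per library. Lama1, the target, lay between 86.5 and 295 normalised reads in m31 libraries and between 0 and 4.18 in controls, so the labels and the targeted gene match. Skeletal muscle fibre genes dominated every library (summed value of 8 genes from 3947415 to 5247271). In bulk tissue, fewer cells of a type and less RNA per cell cannot be told apart. A single library stood apart in its stroma: the summed value of 6 fibroblast markers was 125206 in m31 replicate 4 and 22858 to 43518 in the other 7 libraries, and its slow fibre sum was the lowest at 70379. Its macrophage sum was also the highest, 3617 against 973 to 2685. Control replicate 3 had the lowest muscle fibre sum. The values of both libraries are singled out beside the results they touch, and for some of the regulators estimates made without them are given.

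None of the 10 regulators passed the test between guides. That test was limma on log2(value + 1) with Benjamini-Hochberg adjustment over 15960 genes at a threshold of 0.05, and in it 1 gene, or 0.00627% of those tested, was called, namely Lama1. DESeq2 (0.164% of genes called) and edgeR (0.00618%) on the recovered whole reads called no regulator either. At an unadjusted p under 0.05 limma placed 3 regulators, Nrip1, Ppard and Esrrg, where 6.79% of all genes lay. Their estimates were positive for 6 genes and negative for 4, with a median log2 difference of 0.06 beside 0.01 over all genes tested. The widest departures were a lower Nrip1 and a higher Esrrg with m31.

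**Figure D1:**
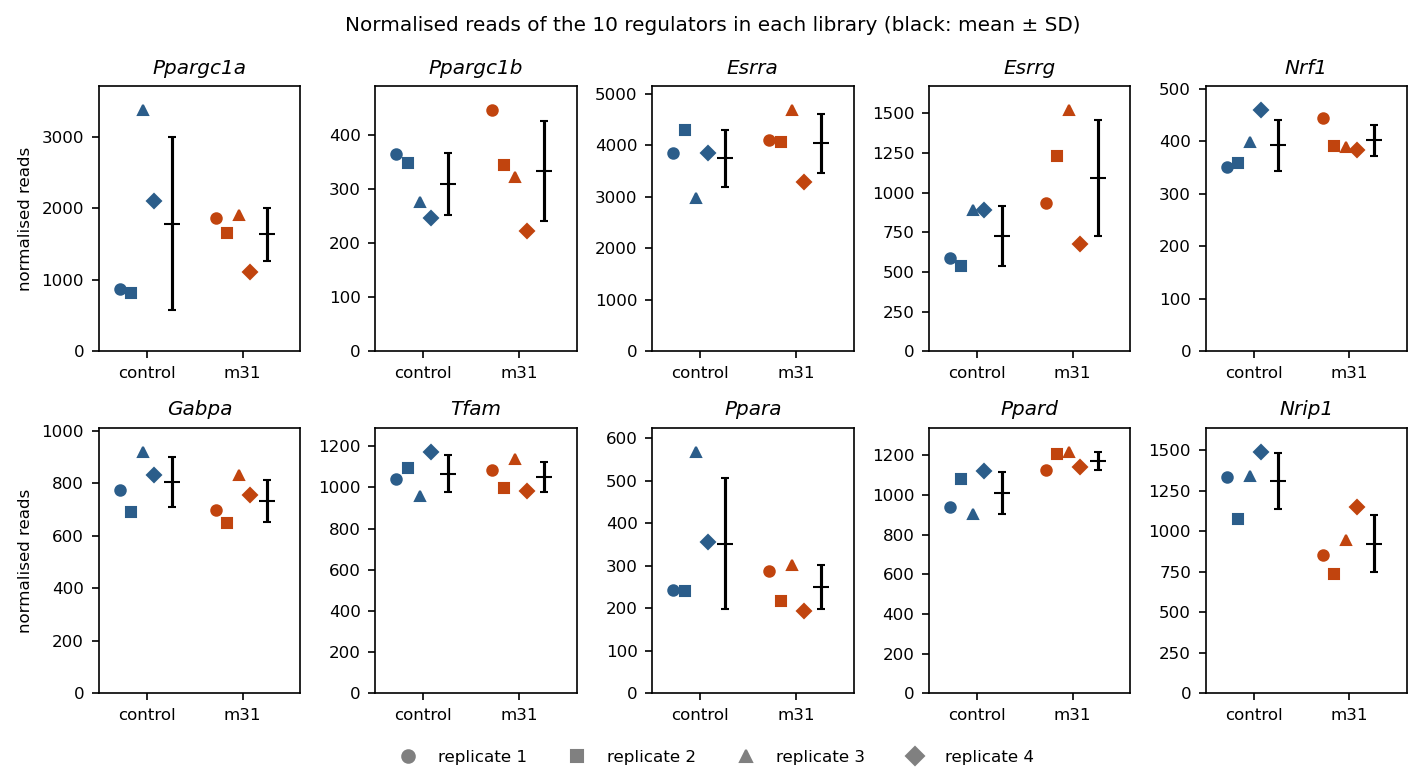
Normalised reads (y axis, from 0) of each regulator in the 4 control (blue) and 4 m31 (orange) libraries, marked by replicate, with mean ± SD in black. Ppargc1a ranges from 809 to 3369 among control libraries, whereas Tfam stays between 959 and 1171 in all 8, and Ppard is the gene whose groups do not overlap.

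Ppargc1a, which encodes PGC-1α (ENSMUSG00000029167, minus strand of chromosome 5, 51454250 to 51567726 in GRCm38), varied more between libraries of the same guide than between guides. In m31 replicates 1 to 4 it had 1864, 1660, 1905 and 1103 normalised reads, and in control replicates 1 to 4 it had 866, 809, 3369 and 2095. Control replicates 1 and 2 were thus below every m31 library, control replicates 3 and 4 above every one of them. Control replicates 3 and 4 were also the libraries with the fewest reads in mouse genes, 26188069 and 25157486. All others had at least 34142447, and what part depth plays was not tested. Group means were 1633 ± 369 and 1785 ± 1211 (SD, n = 4 each), and the log2 difference was 0.10 ± 0.40 (SE, limma adjusted p = 0.976) with a 95% interval from -0.79 to 0.99. The means and the log2 difference point opposite ways, since the high value of control replicate 3 weighs more on the linear scale, and DESeq2 and edgeR both gave -0.13. Without control replicate 3 it was 0.49, and without control replicate 2 it was -0.20, so its sign rests on single libraries. With limma's library weights, which count libraries of wide residual spread less, it was 0.64. The SD of its log2 values over the 8 libraries, 0.70, exceeded that of 96.0% of the genes tested. Control replicate 3, highest in Ppargc1a, also held the most GNDM reads, 37989 normalised against 6157 to 24487 in the other 7 libraries. Control replicate 4, second highest in Ppargc1a, held 9802, the least of the controls. What part GNDM plays was not tested. The entry is a sum over the gene, so its isoforms, some of which start elsewhere, were not separated.

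The sister coactivator Ppargc1b (ENSMUSG00000033871, minus strand of chromosome 18, 61298136 to 61400431), which encodes PGC-1β, did not follow Ppargc1a. Its values were 446, 345, 323 and 222 normalised reads in the m31 libraries, in replicate order, and 366, 348, 276 and 247 in the controls. The groups overlapped, and the highest and the lowest value of all 8 belonged to m31 replicates 1 and 4. The log2 difference was 0.09 ± 0.20 (SE, limma adjusted p = 0.957), and 0.27 without m31 replicate 4. Where Ppargc1a was highest, in control replicates 3 and 4, Ppargc1b was lower than in control replicates 1 and 2.

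Nrip1, the corepressor, had the smallest unadjusted p of the 10 genes. It stood at 858, 740, 947 and 1153 normalised reads with m31 and at 1336, 1074, 1344 and 1490 with the control guide. m31 replicates 1 to 3 lay below every control library, and m31 replicate 4 lay above control replicate 2, so the groups overlapped by that pair. Means were 924 ± 174 and 1311 ± 173 (SD, n = 4 each), a log2 difference of -0.51 ± 0.14 (SE) or 0.70-fold, which did not pass (limma unadjusted p = 0.00409, adjusted p = 0.647). The 95% interval of the difference, -0.82 to -0.20, is not adjusted for the number of genes. Estimates stayed between -0.62 and -0.41 over the 19 alternatives, with adjusted p from 0.165 to 0.985. The gene lies on the minus strand of chromosome 16, from 76287400 to 76373827 (ENSMUSG00000048490), and no other annotated gene overlaps it.

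Esrrg, the receptor ERRγ that is most abundant in oxidative fibres, had the largest positive estimate. Its gene (ENSMUSG00000026610) spans 187608791 to 188214885 on the plus strand of chromosome 1. Its values were 937, 1229, 1520 and 675 normalised reads with m31 and 587, 540, 892 and 890 with the control guide. Of the m31 libraries, replicates 1 to 3 exceeded every control library and replicate 4 fell within the control range. Means were 1090.5 ± 365 and 727 ± 190 (SD, n = 4 each), and the log2 difference was 0.56 ± 0.25 (SE, limma adjusted p = 0.731), with a 95% interval from 0.01 to 1.1. Over the 19 alternatives the estimate ran from 0.38, without m31 replicate 3, to 0.88, without both m31 replicate 4 and control replicate 3. Esrra (ENSMUSG00000024955, minus strand of chromosome 19, 6910977 to 6921813), which encodes ERRα, differed less: 4107, 4064, 4681 and 3295 with m31 and 3853, 4303, 2969 and 3859 with the control guide. Its lowest values were control replicate 3 and m31 replicate 4, and its log2 difference was 0.11 ± 0.13 (SE, adjusted p = 0.893). That difference was 0.0022 without control replicate 3 and 0.20 without m31 replicate 4. Exons of Esrra overlap those of Trmt112 on the opposite strand in the GENCODE annotation, and the labels do not say whether counting used strand, so part of its reads could belong to Trmt112.

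The PPAR receptors sense fatty acids. Ppard, the main form in muscle, was the sole regulator whose groups did not overlap: it stood at 1128, 1206, 1217 and 1143 normalised reads with m31 and at 938, 1080, 905 and 1122 with the control guide. Every m31 library exceeded every control library for 1.84% of all genes tested, and every one lay below for 2.02%, against 1 and 0 of the 10 regulators. The margin was narrow, 1128 in m31 replicate 1 against 1122 in control replicate 4, and the separation was lost when libraries were recentred on their medians. Means were 1173 ± 44.5 and 1011 ± 106 (SD, n = 4 each), and the log2 difference was 0.22 ± 0.09 (SE) or 1.16-fold (limma unadjusted p = 0.0337, adjusted p = 0.720). Ppard (ENSMUSG00000002250, plus strand, 28232700 to 28301474) lies on chromosome 17, the chromosome of Lama1, and whether this plays a part was not tested.

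Ppara, the form best known for the fasting response of liver, behaved otherwise. It stood at 287, 218, 302 and 193 normalised reads with m31 and at 244, 240, 568 and 357 with the control guide. Control replicate 3 stood above all others, and the groups overlapped. The log2 difference was -0.42 ± 0.26 (SE, limma adjusted p = 0.803), and it shrank to -0.17 without control replicate 3 and to -0.05 with m31 replicate 4 left out as well. Ppara (ENSMUSG00000022383) occupies 85734983 to 85802819 on the plus strand of chromosome 15.

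**Figure D2:**
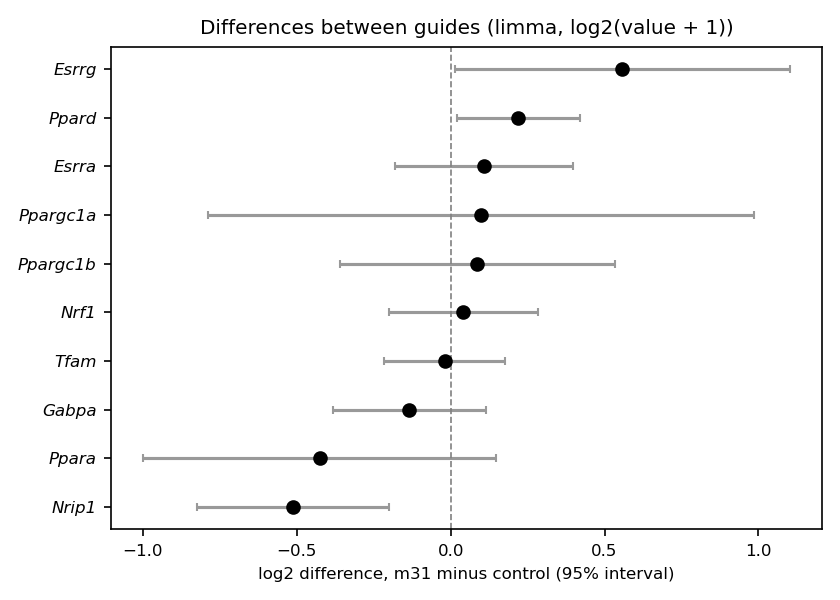
Log2 difference between guides (x axis, m31 minus control) for each regulator, as limma's estimate with an unadjusted 95% interval. The intervals of Esrrg, Ppard and Nrip1 leave out 0 before adjustment, and none of the 10 genes passes after it; the interval of Ppargc1a, from -0.79 to 0.99, is the widest.

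The DNA-binding factors downstream of PGC-1 were steady. Tfam (ENSMUSG00000003923, minus strand of chromosome 10, 71225464 to 71238280), the packaging factor of mitochondrial DNA, stood at 1086, 998, 1137 and 984 normalised reads with m31 and at 1043, 1094, 959 and 1171 with the control guide. Its log2 difference was -0.02 ± 0.09 (SE, limma adjusted p = 0.978) with an unadjusted 95% interval from -0.22 to 0.18, much narrower than that of Ppargc1a. The SD of its log2 values, 0.10, was larger than that of only 10.4% of the genes tested. Nrf1 (ENSMUSG00000058440, plus strand of chromosome 6, 30047988 to 30153458), which encodes nuclear respiratory factor 1, spanned 383 to 445 in m31 libraries and 352 to 460 in controls (log2 difference 0.04 ± 0.11, adjusted p = 0.964). Gabpa (ENSMUSG00000008976, plus strand of chromosome 16, 84834925 to 84863779), the DNA-binding subunit of GABP, spanned 647 to 832 in m31 libraries and 690 to 918 in controls (log2 difference -0.13 ± 0.11, adjusted p = 0.849). Without control replicate 3 the log2 difference of Gabpa was -0.07. Exons of Gabpa overlap those of Atp5j, a subunit gene of ATP synthase on the opposite strand, with the same caution as for Esrra. Control replicate 3, the highest in Ppargc1a, held the least Tfam and the most Gabpa of the 8 libraries.

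Per kilobase of annotated exon, which allows levels of different genes to be set side by side, Esrra led with 887 ± 124 normalised reads per kilobase (SD, n = 8), and its range did not meet that of the next gene. Ppargc1a followed with 259 ± 126 and Tfam with 239 ± 17.1. Esrrg (146), Ppard (145) and Gabpa (135) had overlapping ranges, as had Nrip1 (97.6), Ppargc1b (80.6) and Ppara (78.5). Nrf1 was lowest, at 38.6 ± 3.68, and separated from Ppara. Neighbours in this order other than Esrra and Nrf1 had overlapping ranges over libraries. They were not compared library by library, so overlap does not mean that their levels were the same. Exon lengths are unions over all transcripts of a gene and may exceed the length expressed in muscle. The levels of Esrra and Gabpa may include reads of the genes that overlap their exons.

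Among the regulators themselves, 45 pairs were related over the 8 libraries (Pearson's r and Spearman's rho of log2 values, exact permutation test, two-sided, adjusted over the 45 pairs), and no pair passed. The smallest p for r was that of Ppargc1a with Ppara, with r = 0.81 (exact permutation p = 0.0130, adjusted p = 0.414) and rho = 0.81 (exact permutation p = 0.0218, adjusted p = 0.314). Both genes were highest in control replicate 3 and second highest in control replicate 4. Their r was 0.96 without control replicates 1 and 2, the libraries farthest from the median of Ppargc1a, and 0.95 with values centred within each guide. Gabpa with Ppara (r = 0.78), Gabpa with Nrip1 (0.72) and Esrra with Tfam (0.73) were the other pairs with an unadjusted p under 0.05 for r, which makes 4 pairs where 2.25 of 45 would be so by chance. Without the 2 libraries farthest out their r fell to 0.48, 0.49 and 0.24, so the size of these r rests on those libraries. Centred within each guide it was 0.72, 0.69 and 0.79, and rho was 0.81, 0.79 and 0.71. Ppargc1a with Nrf1 had the same rho as with Ppara, 0.81 (exact permutation p = 0.0218, adjusted p = 0.314), beside r = 0.67, which was 0.27 without control replicates 1 and 2. Ppargc1a with Ppargc1b had r = -0.17, and Ppargc1a with Tfam r = -0.08.

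Genes were also ranked by how near their profile over the 8 libraries, centred on its mean, came to that of Ppargc1a (root mean square difference of log2 values, among 10701 genes with a mean of at least 100). Nearest were the stress-inducible chaperone gene Hsp90aa1 (0.25), the pseudogene Gm12346 (0.25), Efr3b (0.27), the heat shock gene Hspa1b (0.28) and Rcan1 (0.30), a calcineurin regulator and known calcineurin target, while the median gene stood at 0.68. Hsp90aa1 had 942 and 1067 normalised reads in control replicates 1 and 2, 2693 and 2401 in control replicates 3 and 4, and 1645 to 2305 with m31. Rcan1 had 2448, 1760, 5058 and 6263 in control replicates 1 to 4 and 2418 to 4708 with m31. In both genes control replicates 1 and 2 were the low libraries within the control group, as in Ppargc1a, which follows from how these genes were picked. Of the regulators Ppara came nearest, in rank 33 with 0.39, and Esrrg next, in rank 259 with 0.49. Nearest to Ppargc1b were the pseudogenes Gm5619, Gm5884, Gm12231 and Gm12366 and the muscle carnitine palmitoyltransferase gene Cpt1b, each at 0.12 to 0.14 beside a median of 0.34. Reads of a processed pseudogene can come from its parent gene. Cpt1b had only 80.0 to 159 normalised reads over the 8 libraries, below the 333 to 574 of the non-muscle form Cpt1a. Why it was low was not tested.

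**Figure D3:**
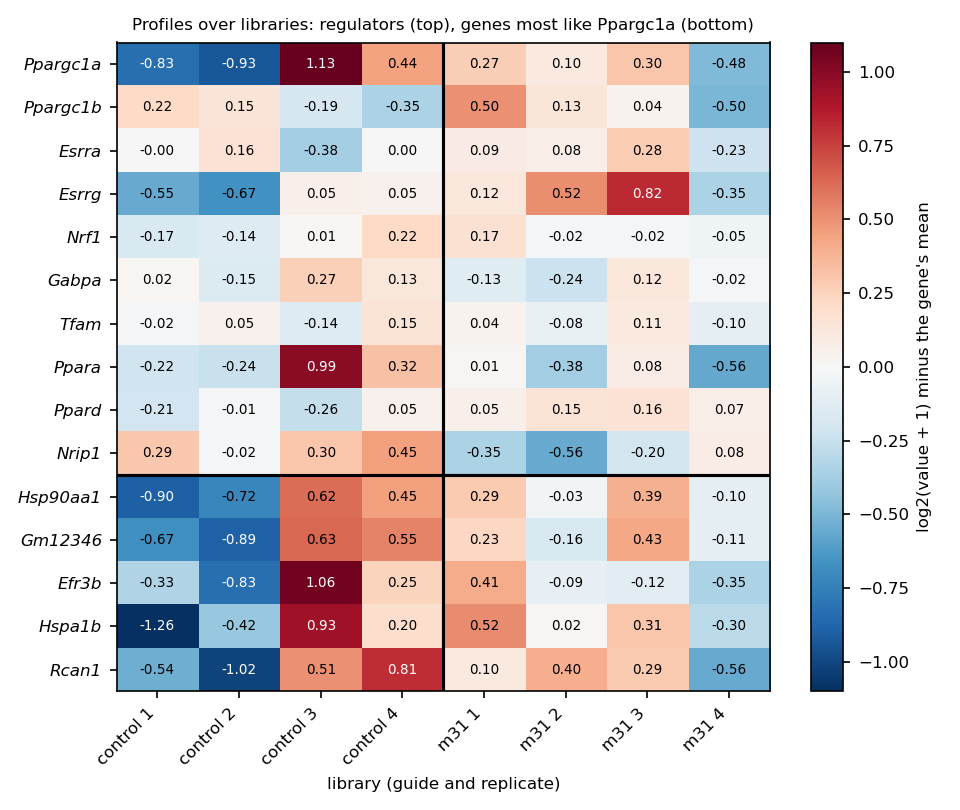
Log2(value + 1) of each gene minus its mean over the 8 libraries (colour and printed value), with libraries in columns by guide and replicate. The regulators are above the line and the 5 genes most like Ppargc1a, picked for that likeness, below it. In control replicates 1 and 2 these 5 and Ppargc1a are low and in control replicates 3 and 4 high, while Tfam and Nrf1 stay near 0.

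Of 23 genes that act upstream of PGC-1α (AMP-activated kinase, calcineurin, p38, CREB, MEF2 and sirtuin genes), none passed limma, DESeq2 or edgeR. Their median log2 difference was -0.06. An unadjusted limma p under 0.05, where 6.79% of all genes lay, was found for 2 of them. Those were Mef2c, a myocyte enhancer factor that drives Ppargc1a, and Ppp3ca, a catalytic subunit of calcineurin. Mef2c had 14105, 13349, 12820 and 14379 normalised reads with m31 and 15833, 14897, 16460 and 16134 in the controls (log2 difference -0.21 ± 0.08, adjusted p = 0.698). Ppp3ca had 6568, 7059, 6892 and 6517 against 8110, 7288, 7460 and 8462 (-0.21 ± 0.08, adjusted p = 0.698). In both genes every m31 library was below every control library, and so it was in Ppp3cb, the other muscle catalytic subunit (7813 to 8161 against 8270 to 9829, log2 difference -0.13). These are 3 of 23 genes where 2.02% of all genes lay below in this way, and none lay above. Prkab1 (0.27) and Mef2d (0.19) had positive estimates and overlapping groups.

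Among 22 cofactors and partners none passed under the 3 tools. Estimates were positive for 12 and negative for 10, with a median log2 difference of 0.04. The coactivator genes Crebbp (-0.26) and Lpin1 (0.34) and the GABP subunit gene Gabpb1 (0.19) had overlapping groups. Crebbp lay between 743 and 915 normalised reads in m31 libraries and between 840 and 1107 in controls. Lpin1 was highest in m31 replicate 1, at 17446, and lowest in control replicate 1, at 7652.

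For the machinery that copies and reads mitochondrial DNA, 14 of 15 genes were measured above the minimum, Slirp being the exception. None passed under the 3 tools and none had an unadjusted p under 0.05. Estimates were negative for 10 and positive for 4, with a median log2 difference of -0.10. Over all genes tested, 7779 were negative and 8181 positive. Mterf4 (-0.22) and Mterf3 (-0.18), which act in mitochondrial ribosome assembly and transcription, Tfb2m (-0.11), the transcription initiation factor, and the polymerase gene Polrmt (0.21) had the smallest unadjusted p. Polrmt lay between 1021 and 1130 normalised reads in the m31 libraries and between 772 and 1201 in the controls.

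Of 21 ERR and PGC-1 targets none passed under the 3 tools. An unadjusted limma p under 0.05, where 6.79% of all genes lay, was found for 2. Estimates were negative for 17 and positive for 4, beside 7779 negative and 8181 positive over all genes tested. The median log2 difference of the targets was -0.08, and whether they differ as a set was not tested. Cycs, cytochrome c, had 7774 to 9519 normalised reads in m31 libraries and 9350 to 12329 in controls (log2 difference -0.25 ± 0.11, limma adjusted p = 0.720). Acadm, the medium-chain acyl-CoA dehydrogenase, had 6116 to 8699 and 8527 to 9318 (-0.25 ± 0.11, adjusted p = 0.720). Both were lowest in m31 replicate 4, as was the list's summed value, 391579 against 411209 to 521251 in the other 7 libraries. The next lowest sum was that of control replicate 3, the library with the most Ppargc1a.

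Of 23 PPAR targets none passed under the 3 tools, with 13 negative and 10 positive estimates and a median log2 difference of -0.0050. Only 1 had an unadjusted limma p under 0.05, where 6.79% of all genes lay. Cpt1a, the carnitine palmitoyltransferase of liver and other non-muscle cells, had 573, 457, 547 and 574 normalised reads with m31 and 333, 381, 530 and 341 with the control guide (0.46 ± 0.15, limma adjusted p = 0.652). Control replicate 3 was within the m31 range. Hadhb (-0.25), Ech1 (-0.23) and Lpl (-0.33), of fatty acid oxidation and uptake, followed with overlapping groups.

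**Figure D4:**
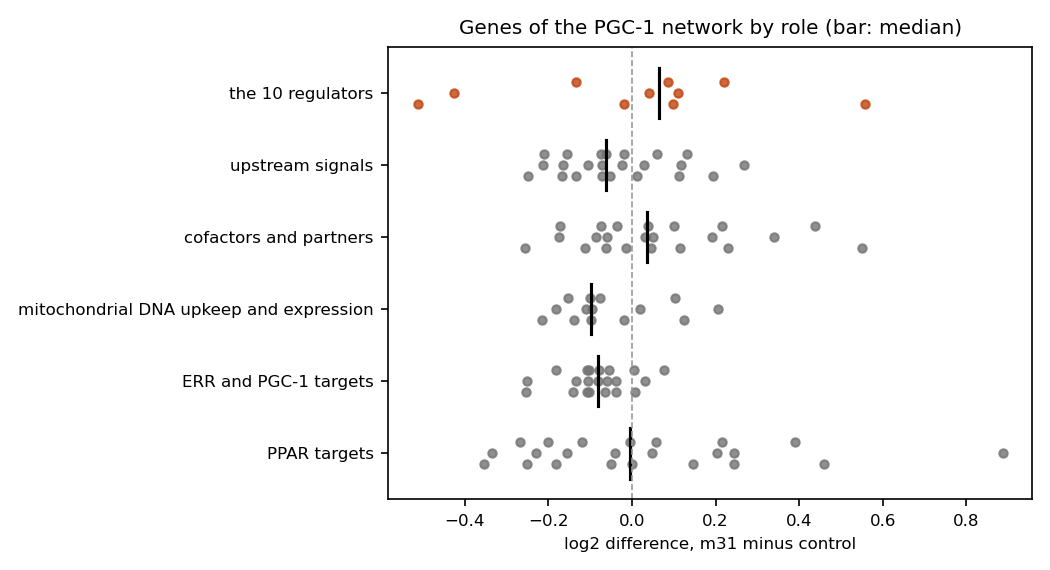
Log2 difference between guides (x axis) of each measured gene, by role in the PGC-1 network, with the median as a bar. Medians lie between -0.10 and 0.06 and no gene shown passed the test; the outermost point is Angptl4, at 0.89.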

How the data were processed

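Total RNA of 8 gastrocnemius samples was purified (RNeasy) and sequenced from NEBNext Ultra libraries, per the labels' protocols. Per gene, the authors deposited a signal: reads divided by a size factor of the library. STAR, DESeq2 and, although the identifiers are mouse, the human build GRCh38.p12 appear in the submitters' processing notes. Neither the counter, its strand setting nor the annotation is given in the sources used here. Library names in the labels matched 8 columns, and the other 3 value columns were not used. Of 23013 entries, 5 belong to the construct and were left out of tests and totals. All values (100%) were whole multiples of 1 read within 0.01 of a read, so whole reads were recovered. Depth is high for these genes, so that the spread between libraries, not counting error, limits precision.

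Symbols, exon lengths and coordinates came from GENCODE M21 (GRCm38); 22979 identifiers had a symbol. Log2(value + 1) was fitted with limma 3.58.1 (trend, group term, all 8 libraries, R 4.3.3) for 15960 genes with a mean of at least 10. edgeR 4.0.16 (1 of 16193 genes) and DESeq2 1.42.0 (31 of 18960 with an adjusted p) were run on recovered reads. The method was tested on simulated data. The 10 genes, the 5 network lists and the marker lists were chosen with earlier results of these data known. Named were all 10 genes, up to 4 genes per list with the smallest unadjusted p, and the 5 nearest profiles to Ppargc1a and Ppargc1b, except 1 list gene that is not reported here; Ppp3cb, Angptl4 and Pdk4 were chosen with their values in view. Alternatives were low-value minimums, pseudocounts, 2 renormalisations, the replicate block, library weights, both count tools and left-out libraries; those for the relations between regulators were added after seeing the data. No 2 libraries of a group were alike within sampling noise (chi-square per degree of freedom 14.3 to 57.9).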

Additional observations from a re-analysis of the deposited data

Results flagged for a closer look

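Nrf1 in m31 replicate 1 stood apart from the rest of its group: it had 445 normalised reads, while the other 3 m31 libraries lay between 383 and 391, a gap of 0.874 of the group's whole range, above Dixon's critical value for 4 samples. It was the 1 library so marked among the 20 groups checked (10 genes, 2 guides), and chance marks about 1 in 20. Control replicate 4, at 460, was higher still.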

How the results depend on the processing

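None of the 10 regulators passed the threshold under any of the 19 alternatives; the smallest adjusted p was 0.165. Of 190 re-estimated differences 11 changed sign, all of them in Ppargc1a, Ppargc1b, Nrf1 and Tfam. Ppargc1a gave -0.13 with DESeq2 and -0.13 with edgeR. With each library left out in turn it ranged from -0.20 to 0.49, Ppargc1b from -0.067 to 0.27, Nrf1 from -0.0093 to 0.12 and Tfam from -0.070 to 0.027. Over all genes, DESeq2 called 31 and the fit without both m31 replicate 4 and control replicate 3 called 3, against 1 to 2 with single libraries left out. The regulators whose groups do not overlap numbered 0 after recentring on library medians (1.14% of all genes above, 3.11% below), 3 without both libraries (Esrrg, Ppard and Nrip1; 8.49% of all genes then lay above and 8.62% below) and 1 to 3 with single libraries left out (2.81% to 5.49% above, 2.99% to 6.74% below; 3.73% and 3.16% without m31 replicate 4, which gave 3). In the 5 network lists, and among the 45 pairs of regulators, no alternative run gave a call. With the replicate block, 0 regulators and 1 gene in all were called, as without it; same-numbered libraries did not deviate together (correlations of -0.18 to 0.05), so the numbers were not taken as pairs. The cause of these shifts was not tested.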

Other observations

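Among the PPAR targets, 2 genes outside those named by rule, picked out after their values were seen, varied widely between libraries of the same guide. Pdk4, the kinase that shuts pyruvate out of oxidation, stood at 5200 and 5745 normalised reads in control replicates 1 and 2, at 18495 and 11147 in control replicates 3 and 4, and at 18293, 5948, 18401 and 9075 in m31 replicates 1 to 4 (log2 difference 0.39, limma adjusted p = 0.892). Angptl4, a secreted inhibitor of lipoprotein lipase, stood at 28.5, 43.9, 183 and 93.3 in the controls and at 430, 44.9, 102 and 131 with m31 (log2 difference 0.89, adjusted p = 0.840). In both genes control replicates 3 and 4 exceeded control replicates 1 and 2, as in Ppargc1a and Ppara. Some other PPAR targets, such as Lpl, had this order as well, and others, such as Cpt1a, did not. In m31 replicate 2 Pdk4 and Angptl4 were low while Ppargc1a, at 1660, was not.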
